A study of Mus musculus with 9 samples.

Results

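The genes described here are the rows of the testis count table that carry an Ensembl mouse gene identifier and reach at least 10 raw counts in each of the 9 libraries. There were 260 such genes (members), of 24236 Ensembl rows and of 50433 rows in all. The members were selected on their counts in these same libraries, so their levels are a description and are given without a test. Whole testes were taken from C57BL/6 males with an intact protamine 1 gene (WT), from males heterozygous for a deletion in Prm1 (Prm1+/-) and from males homozygous for it (Prm1-/-), with 3 males per genotype. The deletion was made by CRISPR-Cas9 in B6D2F1 zygotes and the allele crossed back to C57BL/6J (the strain label reads C57BL/6), the tunica albuginea was removed before RNA extraction, and males analysed in the study were between 8 and 13 weeks old. RNA was measured by QuantSeq, which primes on the poly(A) tail and reads the 3' end of each mRNA. The groups share the strain and differ, as labelled, by genotype only. All cell types of the testis were sampled together, so fewer cells of a type and less RNA per cell cannot be told apart in any value below.

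Protamines are small arginine-rich proteins that replace histones in the condensing spermatid nucleus. They are made late, when transcription in the spermatid is shutting down, and most RNA of an adult testis comes from meiotic and post-meiotic germ cells. The testis also holds Sertoli cells, Leydig cells, peritubular myoid cells, vessels and connective tissue, which express many genes that other organs share. The study asked whether the testis transcriptome differs when protamine 1 is missing.

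The remaining 26197 rows of the table are loci assembled from the reads, which carry no gene name, and 12058 of them reached 10 counts in every male. Of the Ensembl rows, 14508 were at 0 in every male and 9728 had a count in at least 1. A minimum of 1 count in every male was met by 2152 Ensembl rows, a minimum of 5 by 631 and a minimum of 20 by 37. A further 1648 Ensembl rows reached 10 counts in some males but not in all. Asking for 10 counts in every male therefore leaves out genes that were low in a single male, including any that fell with the genotype.

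The library totals ran from 3681615 to 11036146 counts, so that, on a scale of counts per 1000000 of the full library total (CPM), 10 counts stood for 0.906 CPM in the largest library and for 2.72 CPM in the smallest. All 3 Prm1+/- libraries were larger than every WT library. Ensembl rows held 0.409% to 0.555% of each library and the members 0.111% to 0.145%. Their median raw count was between 18 and 41 per male. Counts this low limit every comparison below, and a count of 0 in a library would allow up to 0.272 to 0.815 CPM (3 counts). No 2 columns were identical. The sources do not say how the males within a genotype were related, and the p-values measure the spread between these 9 animals.

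The 5 members just inside the limit were Tppp, Zfp14, Xlr3a, Palm and Gm10778, each with a lowest count of 10 and with mean levels of 2.38 to 2.41 CPM. Just outside were Zfp945, Mtif3, Kcnj6, Slc38a10 and Adcy1, each with a lowest count of 9. Their mean levels were 3.49 to 4.05 CPM, and each missed the limit in 1 male. There were 49 members at a lowest count of exactly 10 and 39 Ensembl rows at exactly 9. The 5 inside were taken from these by the lowest mean CPM and the 5 outside by the highest, so the choice itself set their means apart. Tbx2, Acvrl1 and Col6a1, genes of stroma and vessels, were not members, with lowest counts of 8, 7 and 8.

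The members were mostly genes with long messages. Of the 260, 247 (95%) were annotated as protein coding, 7 as lincRNA, 2 as antisense RNA, 2 as processed pseudogenes, 1 as a processed transcript and 1 as a transcribed unprocessed pseudogene. The median length of the longest annotated transcript was 6794 bases for the 247 coding members, against 3318 bases for the 4324 coding Ensembl rows with any count and 2882 bases for all coding genes of the annotation. Transcripts of at least 5000 bases were found for 79.4% of coding members, 23.5% of coding rows with any count and 18.0% of all coding genes. The median exon number of coding members was 12, against 5 for coding rows with any count. Transcript length was not itself a term of the rule, but the counts that the rule used were rebuilt in part from length. The difference was not tested.

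Level followed length among the members. Over the 260 genes, log2 mean CPM and log2 transcript length had a Pearson correlation of 0.663 and a Spearman correlation of 0.553. This is a relation across genes of the same 9 libraries, and genes are not independent replicates. Length also enters the rebuilt counts from which the levels were computed. Per kilobase of longest transcript, the mean level had quartiles of 0.522 and 0.810 CPM per kb around a median of 0.645. Since QuantSeq reads the 3' end of an mRNA, values per kilobase are a description and not a measure of expression. The highest levels per kilobase belonged to Sept11 (1.43 CPM per kb), a septin of the cytoskeleton, and to Camk2d (1.28), a calcium/calmodulin-dependent kinase. The lowest was that of Ttn, 0.0866 CPM per kb, which encodes the giant sarcomere protein titin and has an annotated transcript of 106824 bases.

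**Figure D1:**
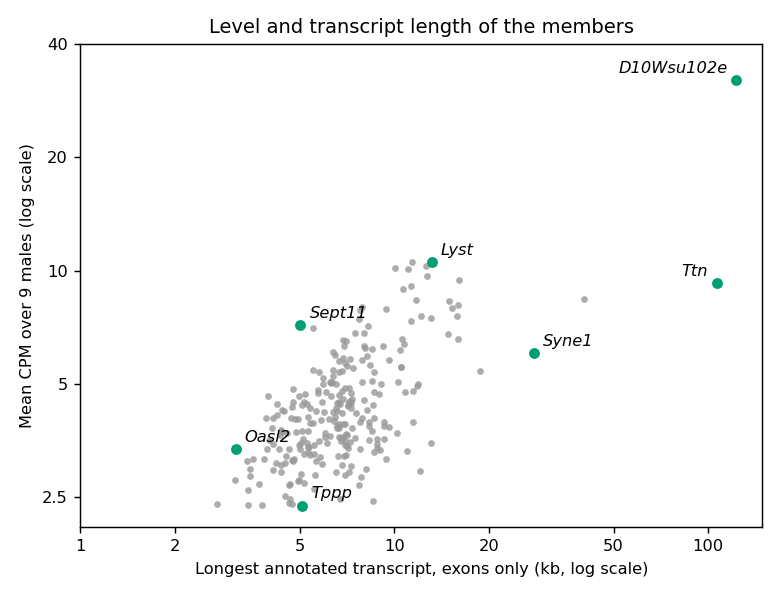
Mean CPM over the 9 males (vertical, log scale) against the longest annotated transcript (horizontal, kb, log scale), 1 point per member (260). Levels rise with length up to about Lyst, while D10Wsu102e (123179 bases) and Ttn (106824 bases) stand alone at the right, at 32.1 and 9.25 CPM.

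Mean levels ran from 2.38 to 32.1 CPM, with a median of 4.06 and quartiles of 3.39 and 5.12. Only 6 members exceeded 10 CPM, and 187 were under 5 CPM. The coefficient of variation over the 9 males had a median of 24.6%. It was under 30% for 196 members and over 50% for 5.

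The highest member was D10Wsu102e, a gene of unknown function on chromosome 10 (GRCm38, bases 83360221 to 83488505, plus strand), which overlaps Aldh1l2 on the other strand. It was at 29.4, 36.7 and 33.3 CPM in WT males, 35.7, 36.9 and 33.4 in Prm1+/- males and 26.7, 23.1 and 33.8 in Prm1-/- males. The 3 ranges overlapped. It stood apart from all other members in level, but its annotated transcript of 123179 bases put it at 0.261 CPM per kb.

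Among the next were Lyst, a regulator of lysosome trafficking (10.6 CPM ± 35.9% as the coefficient of variation), Scn8a, a voltage-gated sodium channel (10.5 ± 23.2%), Prkdc, the catalytic subunit of the DNA-dependent protein kinase (10.3 ± 26.1%), and Pappa, a metalloproteinase that cleaves IGF-binding proteins (10.1 ± 22.2%). Usf3, Igsf9b, Ttn and Sdk2 followed at 9.67, 9.44, 9.25 and 9.13 CPM. For Lyst, Scn8a, Prkdc and Pappa the ranges of WT and Prm1-/- males overlapped. Pappa was at 12.2, 11.5 and 12.5 CPM in Prm1+/- males, above the Prm1-/- males at 10.7, 7.36 and 8.97. WT males were at 9.31, 6.25 and 11.9 CPM. Its log2 CPM had a correlation of 0.718 with the log2 library total. Lyst was high in WT male 2 (15.8 CPM) and Prm1-/- male 3 (17.4 CPM) and between 6.12 and 12.4 CPM in the other 7 males. Those 2 males had the smallest libraries. Ttn varied most within this set, from 4.32 CPM in WT male 3 to 17.4 CPM in Prm1-/- male 3.

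**Figure D2:**
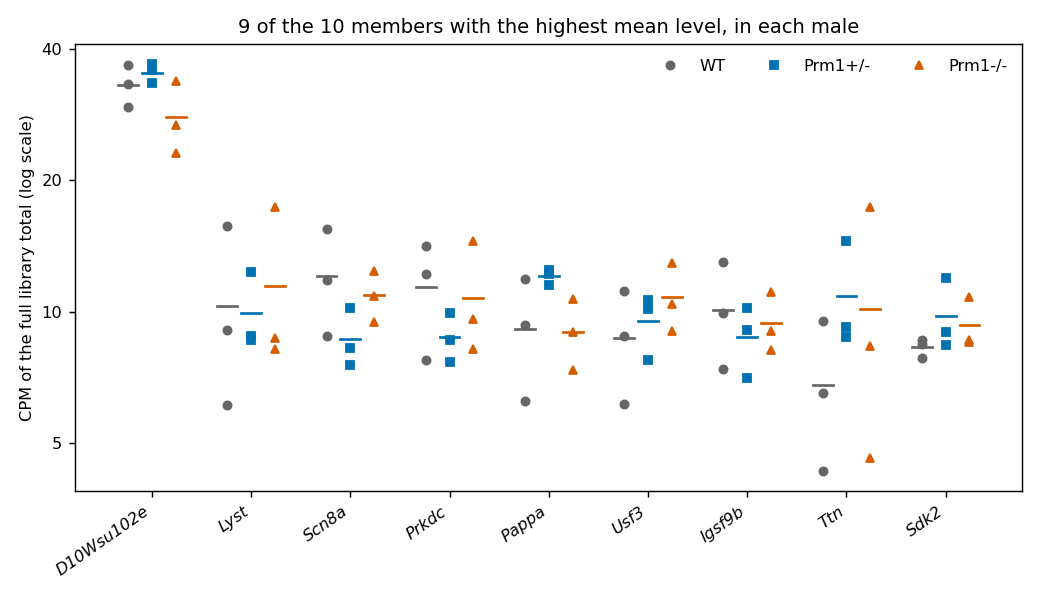
CPM in each male (log scale) of 9 of the 10 members with the highest mean, with 1 point per male and a bar at each genotype mean (n = 3). D10Wsu102e sits between 23.1 and 36.9 CPM, the other 8 genes between 4.32 and 17.4 CPM, and the genotypes interleave for most genes.

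The most even members were Mgam, an intestinal-type maltase (coefficient of variation 9.97%, between 5.16 and 6.86 CPM), Gm43660, a lincRNA (10.1%), Zfp407, a zinc finger protein (11.6%), Mark1, a microtubule affinity regulating kinase (11.9%), and Kdr, the VEGF receptor of endothelium (12.2%). The most variable were D1Ertd622e (77.7%), Vps13d (61.2%), Fgd4 (60.3%), Mpdz (53.9%) and Lrrc37a (53.5%). Fgd4, an exchange factor for the GTPase Cdc42, and Mpdz, a multi-PDZ scaffold, were highest in WT male 2 (7.88 and 7.33 CPM) and next in Prm1-/- male 3 (6.33 CPM for both), again the 2 smallest libraries.

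The members summed to the most CPM in the 2 smallest libraries. The sum was 1255, 1452 and 1106 CPM in WT males 1 to 3, 1147, 1150 and 1130 CPM in Prm1+/- males and 1121, 1106 and 1417 CPM in Prm1-/- males. WT male 2 and Prm1-/- male 3 stood above the other 7, and the genotypes overlapped. In these 2 libraries the limit of 10 counts stood for 2.72 and 2.64 CPM, more than in any other. Their higher sums are therefore in part set by the choice of members. Library size did not order the rest, since Prm1-/- male 2, with 4752618 counts, had nearly the lowest sum and WT male 1, with 4726380, the third highest. Across the 9 males, log2 CPM fell with log2 library total (r under 0) for 205 members (78.9%), against 59.5% of the 17088 loci tested, with median correlations of -0.30 and -0.13. These correlations share the library total, which is also the divisor of the CPM. The rule asked for more CPM in small libraries than in large ones, which was not asked of all loci. This contrast is therefore in part set by the choice of members. Trimmed-mean (TMM) scaling factors, used in the tests, were 1.067 in WT male 2, 1.050 in Prm1-/- male 3 and 0.960 to 1.032 in the others.

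For 2 members the raw counts themselves were lower in larger libraries. Vps13d, which encodes a lipid transfer protein of mitochondria and other organelles, was at 12.1, 14.1 and 9.0 CPM in WT males, at 3.39, 2.52 and 4.67 in Prm1+/- males and at 1.54, 9.47 and 11.6 in Prm1-/- males. D1Ertd622e, a gene of unknown function, was at 13.8, 15.8 and 2.34 CPM in WT males, at 3.8, 3.35 and 3.16 in Prm1+/- males and at 2.63, 12.6 and 18.2 in Prm1-/- males. The Prm1-/- male with the largest library was low for both genes and the other 2 Prm1-/- males were high. The correlation of raw counts with the library total was -0.89 for Vps13d and -0.67 for D1Ertd622e. With the log2 library total as a covariate, the log2 fold change of D1Ertd622e in Prm1+/- against WT testis moved from -1.504 to 0.080. All Prm1+/- libraries were larger than the WT libraries, so that library size and that genotype cannot be told apart.

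**Figure D3:**
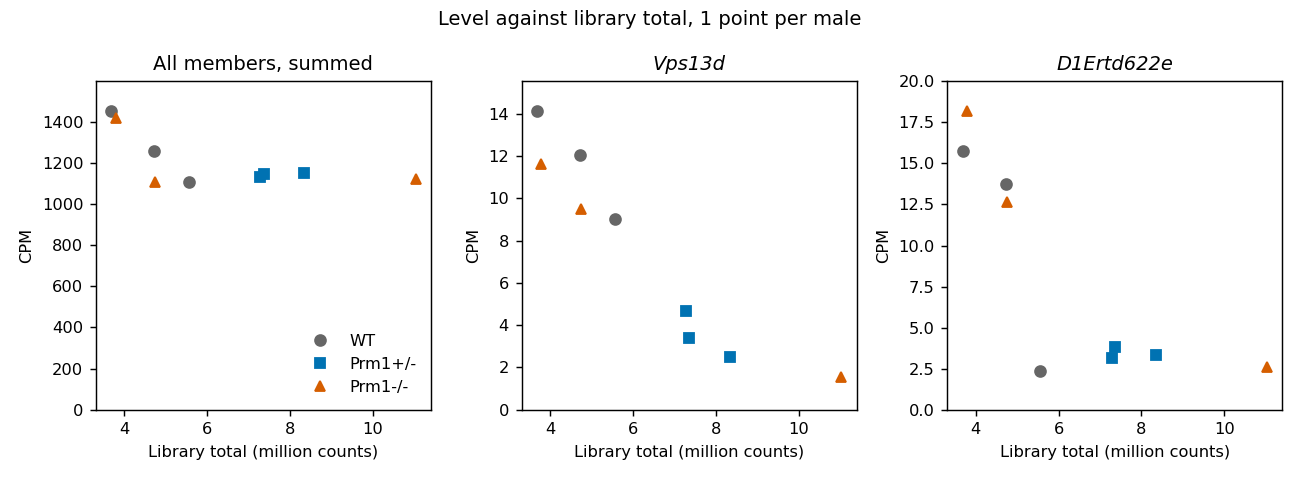
CPM against the library total (in counts), 1 point per male, for the sum over 260 members and for Vps13d and D1Ertd622e. The 3 Prm1+/- males lie at large totals, Vps13d falls from 14.1 CPM in the smallest library to 1.54 CPM in the largest, and the summed level is highest in the 2 smallest libraries (1452 and 1417 CPM).

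The rank correlations of the members' levels overlapped between pairs of males of the same and of different genotypes. The Spearman correlation over the 260 genes ran from 0.340 to 0.715 for the 9 pairs of males of 1 genotype (median 0.629) and from 0.399 to 0.686 for the 27 pairs of different genotype (median 0.555). Pairs of WT males were at 0.545, 0.520 and 0.340, while pairs within Prm1+/- or within Prm1-/- were between 0.626 and 0.715. The genes are the same in every pair and the males recur among pairs, so the values are a description.

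To ask whether genotype changed any member, the whole table was fitted with edgeR's quasi-likelihood test and p-values were adjusted by the Benjamini-Hochberg method over the 17088 loci that passed the filter on low counts. A gene was called at an adjusted p under 0.05 with an absolute log2 fold change above 1. No member was called in any comparison by edgeR. DESeq2 called 0 members when fitted on all 9 samples and 1, Vps13d in Prm1+/- against WT testis, when fitted on 2 genotypes only. The 3 comparisons share their samples pairwise, so their results are not independent of each other.

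In Prm1-/- against WT testis, 0 members were called higher and 0 lower, where 0.17% of all loci were called higher and 0.00585% lower. At an unadjusted p under 0.05, 0 members were higher and 4 lower (1.54% of members), where 3.08% and 1.64% of all loci were. The log2 fold changes of members ran from -0.82 to 0.94 with a median of -0.05, and the median over all loci was 0.01. No member exceeded an absolute log2 fold change of 1, against 7.06% of all loci, which include many with lower counts. The rule leaves out genes that were low in any male, which was not asked of all loci. The contrast of members with all loci, here and below, is therefore in part set by the choice of members. The 95% interval of the fold change lay within 1 log2 unit of 0 for 172 of the 260 members, so changes of that size were not excluded for the others at this depth.

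In Prm1+/- against WT testis, 0 members were called higher and 0 lower, where 0.041% and 0.0761% of all loci were. At an unadjusted p under 0.05, 2 members were higher and 6 lower (3.08% of members), where 4.85% and 5.19% of all loci were. The median log2 fold change was -0.10, and 4 members exceeded 1 in absolute value (1.54%, against 10.4% of all loci). These were Vps13d, D1Ertd622e, Trabd2b and Lrrc37a.

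In Prm1-/- against Prm1+/- testis, 0 members were called higher and 0 lower, where 0.217% and 0.0117% of all loci were. At an unadjusted p under 0.05, 7 members were higher and 5 lower (4.62% of members), where 7.54% and 4.49% of all loci were. The median log2 fold change was 0.01, and 3 members exceeded 1 in absolute value (1.15%, against 12.7% of all loci), D1Ertd622e, Cops7b and Trabd2b. A test of any difference among the 3 genotypes called 0 members at an adjusted p under 0.05, where 0.287% of all loci were called. At an unadjusted p under 0.05 it gave 6 members (2.31%), where 9.2% of all loci passed. The lowest adjusted p of a member in this test was 0.434 by edgeR.

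**Figure D4:**
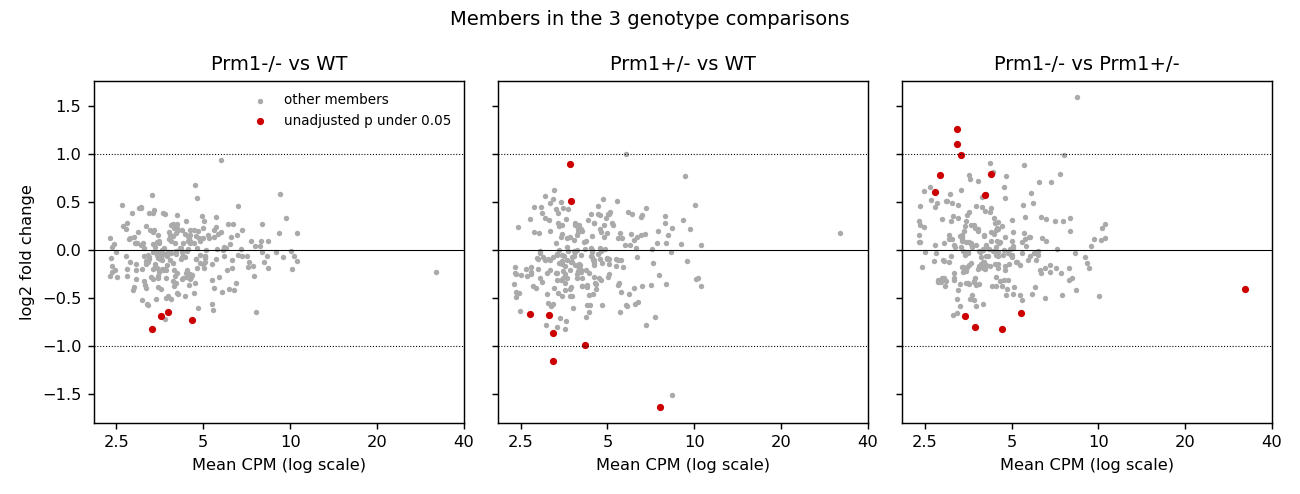
Log2 fold change (vertical) against mean CPM (horizontal, log scale) of the 260 members in each of the 3 comparisons, with red points for an unadjusted p under 0.05 and dotted lines at an absolute log2 fold change of 1. There are 4, 8 and 12 red points from left to right, and none passed an adjusted p under 0.05.

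The members with the smallest p in each direction were taken from each comparison. They are given with their values, and since they were picked for their p, a lack of overlap between groups is part of that choice. On the lower side in Prm1-/- against WT testis were Il6ra, the receptor subunit that binds interleukin 6, Col6a5, a collagen VI chain, and Zfp568, a KRAB zinc finger repressor. With them were Rnf152, a ubiquitin ligase of lysosomes, and Dsp, desmoplakin of the desmosome (unadjusted p 0.0504 by edgeR).

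Il6ra was at 2.96, 5.16 and 4.5 CPM in WT males and at 2.08, 2.1 and 2.90 in Prm1-/- males. Its groups did not overlap, though WT male 1 and Prm1-/- male 3 were next to each other. The log2 fold change was -0.82 (SE 0.32), with an adjusted p of 0.995 by edgeR. Zfp568 was at 5.08, 7.61 and 5.22 CPM in WT males, at 5.30, 3.11 and 4.26 in Prm1+/- males and at 3.35, 4.0 and 3.16 in Prm1-/- males (log2 fold change against WT -0.73, SE 0.29, the same adjusted p). WT and Prm1-/- males were separate and Prm1+/- males lay across both ranges. Col6a5 fell between these values, at 4.56 CPM ± 0.990 (SD, n = 3) in WT and 2.75 ± 0.569 in Prm1-/- males, while Rnf152 was at 4.48 ± 1.27 and 2.79 ± 0.224 and Dsp at 4.55 ± 0.299 and 3.16 ± 0.532.

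On the higher side were D630045J12Rik, Lrrc37a, Oasl2, an interferon-induced gene of the oligoadenylate synthetase family, Zfp407 and Scn2a, a sodium channel. The groups overlapped for all 5. Lrrc37a had the greatest fold change (log2 0.94, SE 0.52), which rested on Prm1-/- male 3 at 11.1 CPM, since the other 2 Prm1-/- males were at 4.98 and 4.63 and the WT males at 3.81, 5.16 and 1.98. Oasl2 was at 2.75, 3.53 and 2.52 CPM in WT and at 3.99, 4.0 and 3.43 in Prm1-/- males. The adjusted p was 1 for each of these 5 by edgeR.

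Cops7b and Trabd2b were lowest in Prm1+/- males against both other genotypes. Cops7b, a subunit of the COP9 signalosome (chromosome 1, bases 86582904 to 86609375), was at 2.54, 4.62 and 3.24 CPM in WT males, at 1.36, 2.16 and 1.79 in Prm1+/- males and at 4.26, 3.58 and 5.54 in Prm1-/- males. The Prm1+/- males lay under all 6 others. The limit of 10 counts stood for 1.20 to 1.37 CPM in the Prm1+/- libraries and for 1.80 to 2.72 CPM in the WT libraries. A gene at 1.36 CPM in any WT male would not have been a member. For every member, the rule thus allowed lower levels in Prm1+/- than in WT males, and a pattern low in Prm1+/- is in part favoured by it. The log2 fold change was -0.87 (SE 0.31, adjusted p 0.480) against WT and 1.26 (SE 0.31, adjusted p 0.326) for Prm1-/- against Prm1+/-, by edgeR.

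Trabd2b, which encodes a membrane metalloprotease acting on Wnt proteins (chromosome 4, bases 114406724 to 114615098), was at 4.65, 4.35 and 3.24 CPM in WT males, at 2.04, 1.32 and 1.79 in Prm1+/- males and at 3.08, 4.63 and 3.96 in Prm1-/- males. Here too the Prm1+/- males were separate from the others, and their lowest level, 1.32 CPM, was under the limit of every WT library. The log2 fold changes were -1.15 (SE 0.29, adjusted p 0.404) and 1.11 (SE 0.29, adjusted p 0.351). Zkscan2, a SCAN-domain zinc finger gene, was at 1.90, 2.40 and 1.79 CPM in Prm1+/- males and at 3.44, 3.79 and 3.69 in Prm1-/- males, with WT males between 2.54 and 3.26.

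Slco2b1 and Gm18337 stood the other way, highest in Prm1+/- males. Slco2b1, an organic anion transporter, was at 3.39, 4.07 and 3.24 CPM in WT males, at 4.35, 4.79 and 5.22 in Prm1+/- males and at 2.90, 2.95 and 2.64 in Prm1-/- males. The 3 ranges did not overlap. Its log2 fold change was 0.51 (SE 0.21, adjusted p 0.487) against WT and -0.81 (SE 0.21, adjusted p 0.351) for Prm1-/- against Prm1+/-, by edgeR. Gm18337, a processed pseudogene whose reads may belong to its parent gene, was at 3.81, 5.98 and 5.22 CPM in WT males, at 6.65, 6.35 and 7.14 in Prm1+/- males and at 4.26, 5.05 and 3.96 in Prm1-/- males. WT and Prm1-/- males overlapped.

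Gm45767, annotated as an antisense RNA that overlaps Pllp on the other strand, was at 3.39, 2.72 and 2.16 CPM in WT males and at 4.35, 4.79 and 5.36 in Prm1+/- males (log2 fold change 0.89, SE 0.23, adjusted p 0.404). Prm1-/- males were at 3.44, 3.37 and 3.69, below the Prm1+/- males and next to or above the highest WT male. Without knowing whether strand was used in counting, its reads cannot be told apart from those of Pllp. The other high members were Gm3892 and Trpm1, a cation channel of melanocytes and retina, and the other low members against WT were Egf, epidermal growth factor (log2 fold change -0.68, SE 0.25), Cmtm4, a membrane protein (-0.66, SE 0.26), and Vps13d (-1.64, SE 0.62, adjusted p 0.480). With the log2 library total as a covariate, the fold change of Vps13d was -0.32.

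Between Prm1-/- and Prm1+/- testis, the remaining members picked were Atrnl1 (log2 0.79, SE 0.30) and Uevld (0.99, SE 0.40) on the higher side. On the lower side were Jade2, a scaffold of histone acetyltransferase complexes (-0.82, SE 0.27), D10Wsu102e (-0.41, SE 0.16) and D130043K22Rik (-0.68, SE 0.28). Jade2 was at 6.52, 4.79 and 6.18 CPM in Prm1+/- males and at 4.08, 3.16 and 2.90 in Prm1-/- males, with WT males between 3.8 and 5.50. Adjusted p-values of these 5 lay between 0.381 and 0.398 by edgeR.

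**Figure D5:**
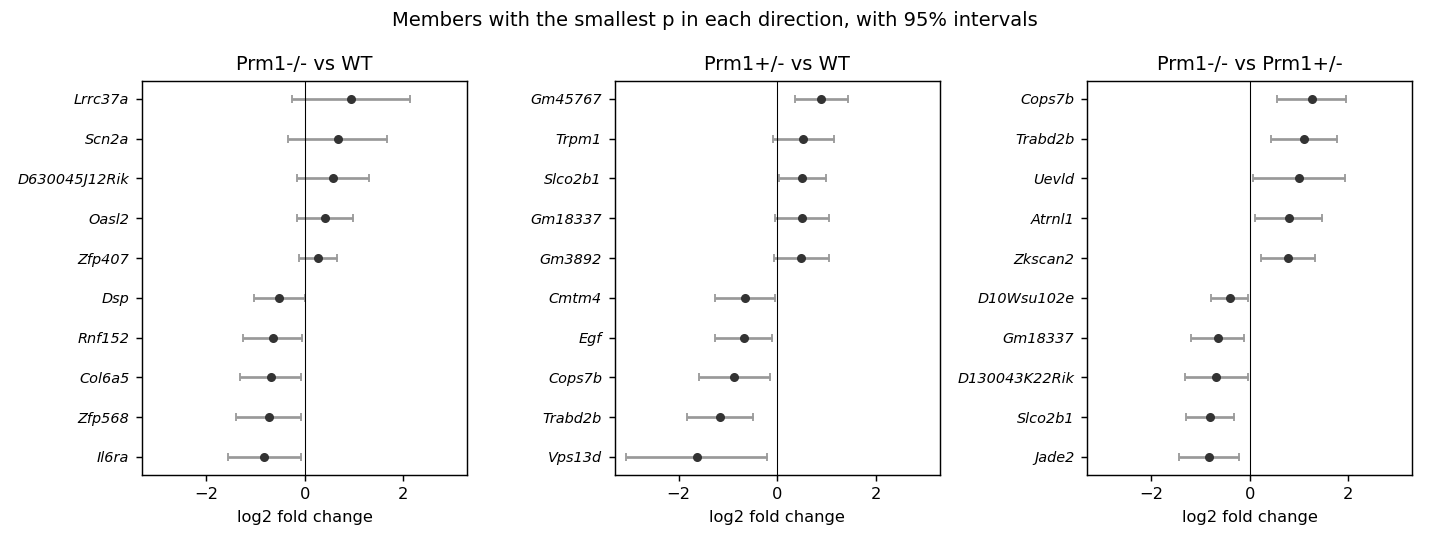
Log2 fold change (point) with 95% interval (bar) of the 5 members with the smallest unadjusted p in each direction, for each of the 3 comparisons. Cops7b and Trabd2b are lower in Prm1+/- than in both other genotypes (fold changes of -0.87 and -1.15 against WT), and the bar of Vps13d is the widest.

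Marker genes of testis cells were almost absent from the members. Of 420 symbols on 18 lists, which covered cell types and pathways of the testis, 55 had a row under an Ensembl identifier, 18 were tested and 6 were members. None of 31 spermatocyte, 32 round spermatid and 42 elongating spermatid markers had such a row, nor did any macrophage marker or any mitochondrially encoded gene. The labelled tissue could therefore not be checked against its germ cells within these rows. Prm1, Prm2, Prm3, Tnp1 and Tnp2 had no Ensembl row either, so the genotype labels were not checked against the deleted gene. Of 20 spermatogonial markers 5 were in the table and 0 were members.

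Of the 6 members on lists, 5 are described here, Kdr, Flt1, Ptprb, Pdgfra and Prkdc. Kdr and Flt1, VEGF receptors of endothelium, and Ptprb, an endothelial phosphatase, were 3 of 11 listed endothelial markers with a row and of 6 tested. Their log2 fold changes against WT in Prm1-/- testis were 0.15 (SE 0.21), -0.19 (SE 0.25) and -0.14 (SE 0.27).

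Pdgfra, the PDGF receptor of mesenchymal cells, was at 5.08, 5.16 and 5.40 CPM in WT males, at 1.49, 3.71 and 2.20 in Prm1+/- males and at 4.80, 2.52 and 7.38 in Prm1-/- males. Prm1+/- males were under the WT males (log2 fold change -0.99, SE 0.43, adjusted p 0.498 by edgeR), and Prm1-/- males were spread across both. Prkdc was the only member among DNA damage genes. Lists of Leydig cells, myoid cells, blood, epididymis, immune genes and sperm proteins named by the study, antioxidant genes and histone replacement had 0 members.

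By known roles, 105 members were placed in 8 groups, which were formed after the members' names had been seen and carry no test. In each group edgeR called 0 members in any comparison. The 1 call by DESeq2 fitted on 2 genotypes, Vps13d, was placed in the giant scaffold group, although it encodes a lipid transfer protein. The 21 vascular and stromal genes, such as Cd93, Thbd, Itga11 and Fbln5, had a median log2 fold change of -0.12 in Prm1-/- and -0.10 in Prm1+/- against WT testis. Their summed level was between 88.2 and 98.9 CPM in WT, 79.6 and 87.9 in Prm1+/- and 74.5 and 98.4 in Prm1-/- males. The Prm1+/- range lay just under that of WT and the Prm1-/- range overlapped both. Against WT, 1 of the 21 had an unadjusted p under 0.05 in each comparison, Col6a5 in Prm1-/- and Pdgfra in Prm1+/- testis, both lower.

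The 6 genes grouped under cyclic nucleotide signalling were adenylate cyclases (Adcy2, Adcy5, Adcy7), the soluble guanylate cyclase subunit Gucy1a1, and the CREB-related factors Crtc1 and Creb3l2. Creb3l2 was grouped as a relative of CREB, and its part in this signalling was not shown here. All 6 had fold changes under 0 in Prm1-/- against WT testis and all but 1 in Prm1+/-, with medians of -0.21 and -0.51. Most members leaned the same way, with 148 and 159 of the 260 below 0 in these comparisons. Over all loci tested, 51.7% and 47.9% were above 0, so the lean was less marked there. The summed level was between 25.7 and 30.5 CPM in WT, 19.2 and 22.7 in Prm1+/- and 21.0 and 24.8 in Prm1-/- males. WT males were thus above all others, but 0 of the 6 genes passed an unadjusted p under 0.05 in any comparison. Creb3l2 was at 5.50, 5.98 and 2.34 CPM in WT males, and for that gene the gap rested on WT males 1 and 2.

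The 13 ion channel and neurotransmitter receptor genes, among them Scn8a, Scn2a, Kcnc1, Kcnb2 and Chrnb2, were evenly split in direction in Prm1-/- against WT (7 of 13 above 0), with a median of 0.01. The 10 neural adhesion genes, among them Sdk2, Pcdh10, Celsr2 and Fat3, had a median of -0.11. Such genes are best known from nerve cells. In the 2 groups, no gene had an unadjusted p under 0.05 in any comparison.

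Among 13 giant scaffold and cytoskeletal genes, such as Ttn, Syne1 and Trio, the median was -0.08 in Prm1-/- against WT, and their summed level ran from 55.4 to 102.4 CPM in WT and from 61.2 to 104.7 CPM in Prm1-/- males. The 2 ranges covered nearly the same span. The 17 zinc finger and BTB factors had medians of 0.04 in Prm1-/- and -0.21 in Prm1+/- against WT, with 1 gene (Zfp568) and 0 genes under an unadjusted p of 0.05. The 12 chromatin and transcription regulators, such as Arid1a, Satb1 and Kdm3b, had medians of 0.05 and -0.12 against WT. In Prm1-/- against Prm1+/- testis their median was 0.24. There 2 of the 12 had an unadjusted p under 0.05, Pygo1 higher and Jade2 lower, where 7.54% and 4.49% of all loci did. The 13 innate immune and cytokine genes, such as Il17ra, Ifnar1, Zc3hav1 and Trim56, had medians of 0.12 and -0.08 in Prm1-/- and Prm1+/- against WT. Their summed level was 49.9 to 60.3 CPM in WT and 48.8 to 63.6 CPM in Prm1-/- males.

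By position, 18 members (6.92%) were on chromosome X and 1, Usp9y, on Y. The X-linked members, among them Rps6ka3, Xiap and Med14, had a median log2 fold change of -0.01 in Prm1-/- and -0.09 in Prm1+/- against WT, and 0 of 18 had an unadjusted p under 0.05 in any comparison. Xlr3a, 1 of them, belongs to a multicopy family, so its reads may be shared with its copies, as may those of Gm3892, Fam205a3 and Lrrc37a. The 13 members that do not code for protein had a median of 0.07 and 0.16. Of all members, 60 (23.1%) overlapped another annotated gene on the same strand and 87 (33.5%) on the opposite strand, and their counts may include reads of the neighbour. Reads of a member may also have been counted under an assembled locus, so that these counts need not be the whole expression of the gene.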

How the data were processed

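Whole-testis RNA of 9 males was sequenced by QuantSeq. The authors aligned 50-base reads with HISAT2 2.1 to GRCm38, built transcripts with StringTie 1.3.3, which also quantified them, and ran DESeq2 1.16.1, per the labels and methods. The deposited table holds estimated counts per gene, which StringTie's conversion rebuilds from coverage, length and read length, so long transcripts and assembled loci affect them. Whether strand was used in counting is not given in the sources used here.

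No value was changed or rounded before use, since all were whole. CPM used the full column total. Tests used edgeR 4.0.16 in R 4.3.3 (filterByExpr by genotype, minimum count 10, TMM, quasi-likelihood test, all 9 samples, Benjamini-Hochberg adjustment over 17088 loci). Standard errors came from the fitted information matrix and quasi-dispersion, with the Poisson error as the lower limit of the 95% interval's width. To be called, a locus had to change more than 1 log2 unit at an adjusted p under 0.05. The scripts were tested on simulated data. Gene names, positions and lengths came from GENCODE vM21 (GRCm38), which matched 24131 of 24236 Ensembl identifiers.

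Named are the 10 members with the highest mean CPM, the 5 with the smallest p in each direction of each comparison, those on marker lists, the 5 most and 5 least variable, and the 5 nearest the limit on each side, plus Tbx2, Acvrl1 and Col6a1. Some genes that this rule names are not reported here. Other genes named as group examples, and the leading genes per kilobase, were chosen after their values were seen. The members and lists were chosen with earlier results of these data known. Alternatives were other scalings, filters, DESeq2 1.42.0, thinning to the smallest library, a replicate block, 2 genotypes only, each male left out and other minimum counts. Intervals cover counting error and the spread between these males only.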

Additional observations from a re-analysis of the deposited data

How the results depend on the processing

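Over the 24 settings tried, edgeR called 0 members. DESeq2 fitted on 2 genotypes called 1 member lower in Prm1+/- against WT testis, Vps13d (log2 fold change -1.63, adjusted p 0.0246 by DESeq2), and 0 others. Of 600 alternative values of the 30 fold changes named by p, 0 changed sign. These were picked for their p and refitted on the same counts, so a stable sign was likely from the start. Outside this pick, D1Ertd622e in Prm1+/- against WT testis moved from -1.504 to 0.080 with the library total as a covariate. Numbers of members with an unadjusted p under 0.05 moved more, from 4 in Prm1-/- and 8 in Prm1+/- testis, each against WT, and 12 between Prm1-/- and Prm1+/- testis. They were 8, 14 and 23 when every locus needed 10 counts in every sample. For this and the settings below the share over all loci is not given, so these numbers describe the settings only. DESeq2 on all samples gave 0, 3 and 7, and on 2 genotypes 0 and 3 for the first pair of comparisons. Thinning to the smallest library gave 7 for the first, and the library total as a covariate, added after the data were seen, gave 1. Leaving out the 2 smallest libraries was added then too and gave 0 calls. A minimum of 5 counts (631 genes) gave 14, 24 and 27, a minimum of 20 (37 genes) gave 0, 0 and 1, and the 929 Ensembl rows past edgeR's filter gave 21, 38 and 41. Leaving out 1 male gave 1 to 6 (lowest without Prm1-/- male 1), 4 to 21 (highest without WT male 3, lowest without Prm1+/- male 1 or 3) and 7 to 22 (highest without Prm1+/- male 2, lowest without Prm1+/- male 1 or 3 or Prm1-/- male 3), and 0 calls. The cause of these moves was not tested. Replicate numbers are not stated to pair the males. Between genotypes, deviations from the genotype mean correlated from -0.12 to 0.08 for the same number and from -0.16 to 0.18 for different numbers. With 3 males per genotype these correlations do not settle whether males were paired. With the number as a block the first comparison gave 1 member. Low counts limit all of these comparisons.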
